A study of Mus musculus with 6 samples.

Results

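The genes for the protein components of the cytosolic ribosome were followed through single-cell RNA sequencing of mouse marrow. They were taken by symbol from the list of measured features: names starting with Rpl or Rps and a digit, names starting with Rplp, and Rpsa, without processed pseudogenes named with -ps and without the Rps6k kinases. This gave 86 of 32285 features. Of these, 77 were the usual proteins of the ribosome, 46 of the large and 31 of the small subunit. The other 9 were relatives with a name of the same form, namely Rpl3l, Rpl7l1, Rpl10l, Rpl22l1, Rpl36al, Rpl39l, Rps27l, Rps27rt and Rps19bp1. Measured values played no part in the rule. The genes lay on 19 chromosomes (GENCODE vM21 on mm10), and 23 of them overlapped another measured gene, 1 on the same strand (Rpl19). Where counting does not use the strand, reads of such pairs cannot be told apart.

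The study compared bone marrow myeloid cells of the jaw with those of the long bones. Both groups were cells selected magnetically for CD11b, the surface integrin encoded by Itgam, from C57Bl/6 mice aged 2 months, with no treatment or genetic change named in the labels. The femur group (1 female and 2 male samples) was marrow from the hind limb; the labels name femurs and tibiae, whereas the methods of the study name femurs alone. The mandible group (3 male samples) was marrow flushed from mandibles and from the sockets left after the molars were taken out. Sex therefore differed partly with site, and the sources used here do not say how many mice went into a sample.

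A ribosome has a small subunit, which reads the messenger RNA, and a large subunit, which joins amino acids into protein. Each holds ribosomal RNA and its proteins in fixed proportions, and cells usually make these proteins in matched amounts. The messenger RNAs typically start with a C followed by a run of pyrimidines, the terminal oligopyrimidine tract, through which growth signals control how strongly they are translated. Neutrophils divide and fill their granules with protein as precursors in the marrow, and are known to lose most of their ribosomes as they mature.

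Runs of this kind stood near many of the annotated starts, and 6 are shown here, for genes at either end of the change from precursors to mature neutrophils or close to the summed level of the group. The sequences are RefSeq sequences on GRCm38.p6, on the strand of the gene and 5′ to 3′, with the run of pyrimidines in capitals. The run starts 17 bases after the annotated start in Rpl10a, and in the others before it, by 2 bases in Rps18 and Rps27, 3 in Rps10, 5 in Rps9 and 11 in Rpl19, so these letters need not be the first of the messenger RNA. Rpl10a (chr17:28328576-28328605, plus strand) and Rps18 (chr17:33955644-33955673, minus strand) were among the genes that fell most from precursors to mature neutrophils. Rps9 (chr7:3704030-3704059, plus strand) and Rps27 (chr3:90213627-90213656, minus strand) were the core genes that did not fall relative to all transcripts counted. Rpl19 (chr11:98026907-98026936, plus strand) and Rps10 (chr17:27635224-27635253, minus strand) were among those that followed the summed level of the group most closely.
Rpl10a: gctctgCCTTCTTTCCggtttccgcggcag
Rps18: cttccgCTCTCTCTTCCacaggaggcctac
Rps9: ccttgtCTCTCTTTgtctcgggcctgagtt
Rps27: ctttcgCTCCTTTCCggcggtgacgacctc
Rpl19: cttgggCTCTCCCCTTCgcagataatgggc
Rps10: cgcacgCCCCTTCCTTTCCagcctccgcct

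The 6 were chosen among starts with a tract. Rpsa, which fell most, and Rpl3l, which rose most, had starts in the table without a tract as defined here. Of the 86 genes, 66 had at least 1 start in the RefSeq promoter table (78 starts). A C followed by at least 7 pyrimidines on the gene's strand, within 30 bases of the start, was found at 55.1% of these starts and at 19.8% of all 32851 starts in the table. Within 5 bases of the start the shares were 26.9% and 4.37%. The letters CCGGAAG, searched on both strands over the whole window of 300 bases, stood in 34.6% of the starts of ribosomal protein genes and in 8.86% of all starts. These are matches of letters and not measured sites of binding.

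The authors kept 69776 of 74091 barcodes and placed them in 9 clusters, numbered 0 to 8. The 6 libraries held 82962160 to 244946998 unique molecular identifiers (UMIs), with a median of 6924 to 9158 UMIs per cell, and pairs of libraries shared 15 to 70 barcodes. UMIs were summed per library and cluster and are given as UMIs per 1000000 UMIs of that sum (CPM). Marker lists were summed to describe the clusters. The precursor list (Elane, Mpo, Prtn3, Fcnb and Mki67) summed to 4181 CPM in cluster 4, which is called the precursor cluster here, and to 34.1 CPM in cluster 1. The immature list (Ltf, Camp and Ngp) was high in both cluster 4 (83775 CPM) and cluster 0 (78726 CPM), and the mature list 22724 to 28990 CPM in clusters 1 to 3. The monocyte list led in cluster 5 (5445 CPM), the B cell list in cluster 6 (10208 CPM) and the erythroid list in cluster 8 (166905 CPM). Cluster 7 had 7.92% of its UMIs from mitochondrially encoded genes. Itgam itself lay between 682 and 974 CPM in the 6 libraries.

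The ribosomal protein genes held 30364331 of 724294110 UMIs, or 4.19%, and this share differed widely between the clusters. It was highest in cluster 6, the B cell cluster, at 14.6, 13.2 and 15.3% in femur replicates 1 to 3 and 13.4, 16.7 and 14.1% in mandible replicates 1 to 3. This cluster held 39, 158 and 60 cells in the femur libraries and 100, 394 and 258 in the mandible libraries. The monocyte cluster 5 followed, with 10.0, 11.9 and 10.2% in the femur and 10.9, 12.4 and 10.9% in the mandible. In the precursor cluster 4 the share was 5.27, 5.76 and 5.60% in the femur and 5.19, 6.29 and 6.36% in the mandible. These 3 clusters did not overlap, and their order was the same in 6 of 6 libraries. The mean over the 6 libraries was 14.5% ± 1.32 in cluster 6, 11.0% ± 0.936 in cluster 5 and 5.74% ± 0.496 in cluster 4 (SD, n = 6 here and for all means over libraries).

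The later neutrophil clusters were all lower. In the immature cluster 0 the share was 2.10, 2.24 and 2.87% in the femur and 1.96, 2.37 and 2.39% in the mandible. Cluster 1 had 1.45, 1.83 and 2.53% in the femur and 1.61, 1.79 and 1.91% in the mandible. Cluster 3 had 1.26, 1.51 and 1.87% in the femur and 1.45, 1.62 and 1.68% in the mandible. Cluster 4 lay above cluster 0 without overlap, by 2.50 ± 0.276-fold within a library. Cluster 0 in turn lay above cluster 3 without overlap. Clusters 1, 2 and 3 overlapped, although within each of the 6 libraries cluster 1 was above cluster 2 and cluster 2 above cluster 3. Cluster 7 could not be placed against cluster 1, which was the higher of the pair in 3 of 6 libraries. Femur replicate 3, the library with the most UMIs, was the highest in clusters 0 to 3 and 7. Because clusters were built from these same cells, differences between them are descriptions and were not tested.

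**Figure D1:**
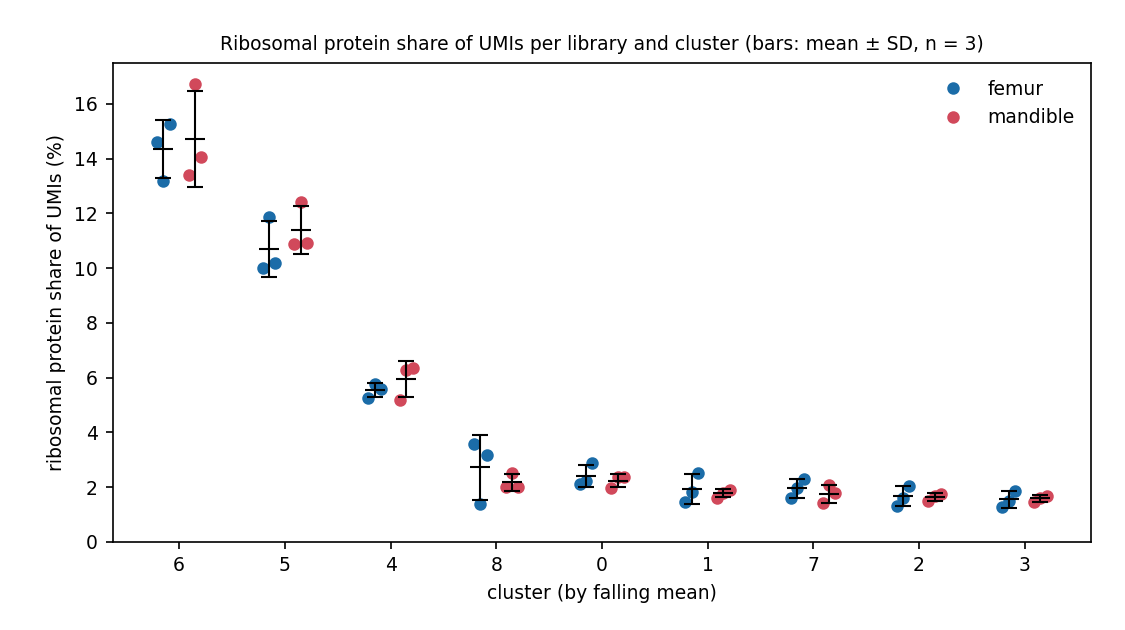
Share of UMIs from the ribosomal protein genes (y axis, percent) in each cluster, in order of the mean (x axis), with 1 point per library (femur blue, mandible red) and bars at the mean ± SD of the 3 libraries of a site. Clusters 6, 5 and 4 lie apart at means of 14.5, 11.0 and 5.74%, and clusters 0 to 3 lie between 1.26 and 2.87%.

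A share depends on everything else in the cell, so the number of ribosomal protein UMIs per cell was also taken. It was 1328 ± 181 in cluster 5 and 1297 ± 136 in cluster 4, which overlapped although the shares of these clusters did not. It was 973 ± 203 in cluster 6, 285 ± 46.8 in cluster 0, 116 ± 11.5 in cluster 3 and 99.0 ± 8.53 in cluster 1. The precursor cells thus carried about as many of these UMIs as the cells of the monocyte cluster, in cells with more UMIs in all (median per library 17937 to 23203 in cluster 4 and 9031 to 10716 in cluster 5).

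Within a cluster the share differed by the reference label that the authors' metadata gave to each cell. In cluster 4 the cells labelled neutrophils had a share of 5.03% ± 0.327, and the 177 cells labelled pro-B had 18.3% ± 2.79 in the 4 libraries with at least 20 of them. The B cell list came to a mean of only 10.2 CPM over all cells of cluster 4, against 10208 CPM in cluster 6. Pro-B is therefore used here as a label alone. In cluster 5 the share was 20.4% ± 1.99 for cells labelled dendritic cells (5 libraries), 14.7% ± 0.884 for monocytes, 9.10% ± 2.63 for macrophages and 6.55% ± 0.885 for neutrophils. In cluster 6 it was 18.0% ± 2.21 for cells labelled B cells and 6.89% ± 0.349 for neutrophils (3 libraries). The cells labelled neutrophils inside clusters 5 and 6 were therefore nearer to cluster 4 than to the monocytes and B cells beside them. The labels were assigned from expression, so these too are descriptions.

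The share also differed by the phase of the cell cycle called in the metadata. In cluster 0 it was 2.27% ± 0.305 in cells called G1, 3.12% ± 0.266 in G2M and 3.30% ± 0.259 in S, and both cycling groups were above G1 in 6 of 6 libraries. In cluster 4 the cells called S had 6.86% ± 0.417 and those called G2M 5.07% ± 0.597, with S higher in 6 of 6 libraries. Few cells of cluster 4 were called G1, and in the 4 libraries with at least 10 of them (74 cells) their share was 4.09% ± 0.829. In cluster 5 the share was 10.6% ± 0.661 in G1, 11.7% ± 1.44 in G2M and 12.8% ± 2.14 in S, which was above G1 in 5 of 6 libraries. Depth differed with phase, and its part in these shares was not tested. The median UMIs of a library in cluster 0 ranged from 8491 to 13600 in G1, from 2920 to 14631 in G2M and from 1560 to 13647 in S. In cluster 5 they ranged from 7804 to 10273 in G1, from 14057 to 20028 in G2M and from 1640 to 25791 in S, and in cluster 4 from 22062 to 36290 in G1, from 17803 to 24438 in G2M and from 17424 to 22637 in S. Femur replicate 1 held the lowest values of S in clusters 0 and 5 and of G2M in cluster 0.

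**Figure D2:**
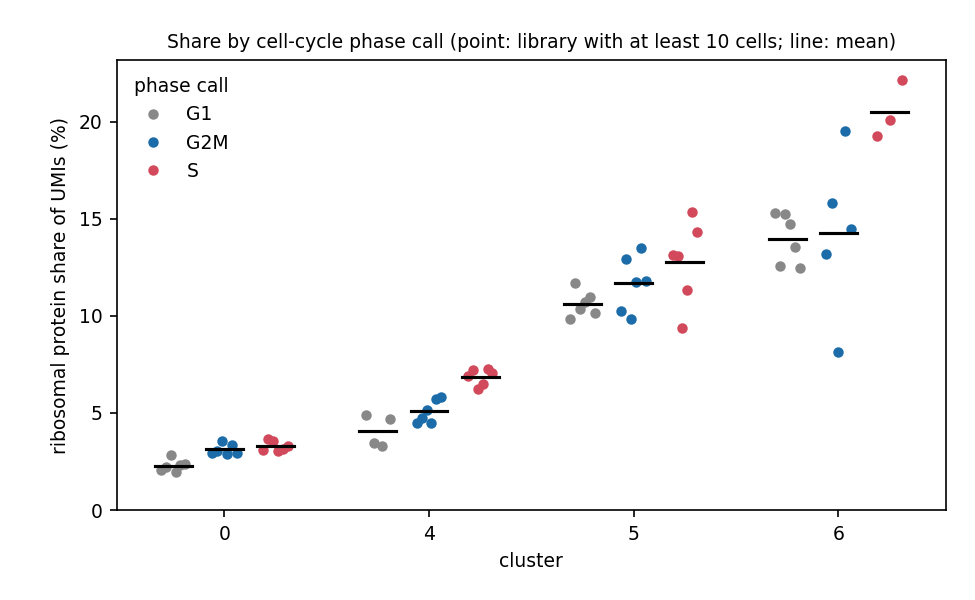
Share of UMIs from the ribosomal protein genes (y axis, percent) by cluster (x axis) and called phase of the cell cycle (colour), with 1 point per library that had at least 10 cells of the phase and a line at the mean. In cluster 4 the S cells (mean 6.86%) lie above the G2M cells (mean 5.07%) in each library.

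The genes were next compared singly between the precursor cluster 4 and cluster 1, the largest cluster of the mature stages. Of the 86 genes, 83 had a mean of at least 10 CPM over the 54 sums of a library and cluster, as had 7186 features in all. The change is the difference of the mean log2(CPM + 1) of the 6 libraries. The median change of the 83 genes was -1.95, with a range of -4.22 to 3.34, beside -0.01 over the 7186 features. Without overlap of the libraries, 77 of the 83 were lower in cluster 1 and 1 was higher, where 37.0% of all features were lower and 35.0% higher. Both subunits moved alike, with a median of -1.87 for the 46 core genes of the large subunit and -2.02 for the 31 of the small subunit.

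**Figure D3:**
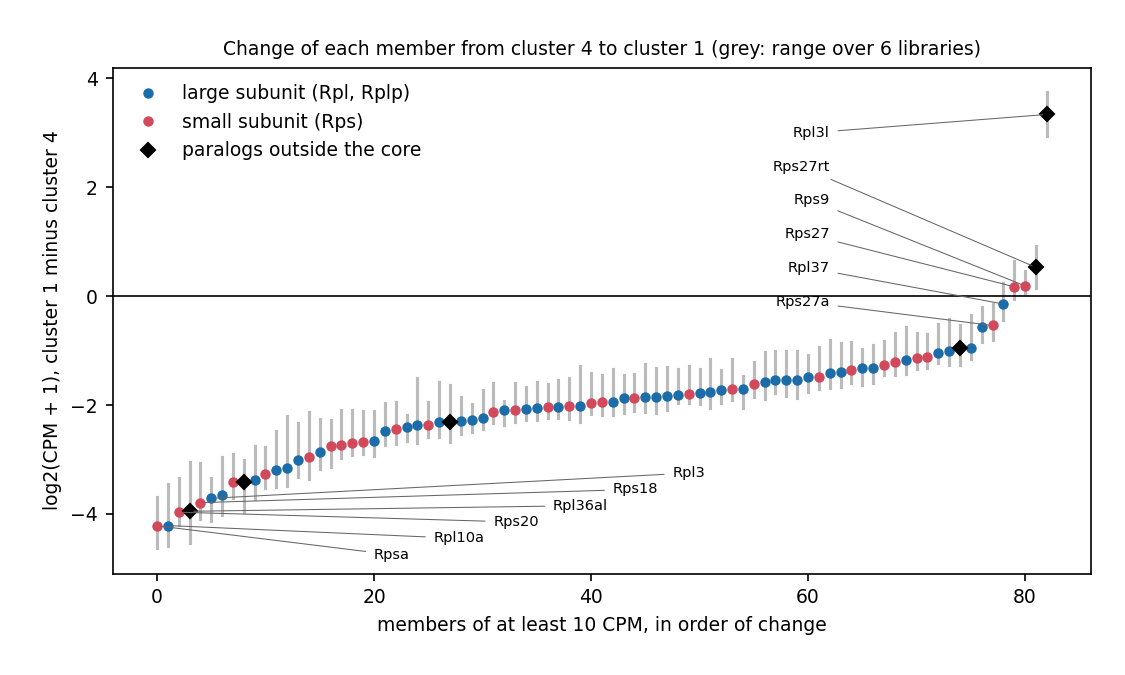
Mean difference in log2(CPM + 1) between cluster 1 and cluster 4 (y axis) for the 83 ribosomal protein genes of at least 10 CPM in order of the change (x axis), coloured by subunit, with relatives outside the core as diamonds and grey lines for the range over the 6 libraries. Nearly all lie below 0, from -4.22 for Rpsa to 0.19 for Rps9 among the core genes, and Rpl3l stands apart at 3.34.

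The proteins of the stalk, the arm of the large subunit that recruits elongation factors, are Rplp0, Rplp1 and Rplp2. Rplp0, the base of the stalk, measured 607, 742 and 597 CPM in the femur and 642, 784 and 835 CPM in the mandible in cluster 4, and 125, 167, 186, 154, 176 and 181 CPM in the same libraries in cluster 1. Every library of cluster 4 lay above every library of cluster 1, and the change was -2.08. Rplp1 changed by -1.33 and Rplp2 by -1.83, also without overlap. The genes of the stalk, whose proteins sit together on 1 arm, thus did not fall by the same amount.

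Among the small subunit, the gene that fell most was Rpsa, whose protein also serves as a laminin receptor. Rpsa measured 989, 1101 and 1014 CPM in the femur and 1017, 1228 and 1259 CPM in the mandible in cluster 4. In cluster 1 it measured 41.0, 51.9, 77.5, 40.2, 81.3 and 69.6 CPM in the same order, a change of -4.22 in which every library of cluster 1 lay far below every library of cluster 4. Rps20, which lies on the head of the small subunit, changed by -3.97, from 1002 ± 123 to 64.4 ± 16.5 CPM. Rps19, the gene most often mutated in Diamond-Blackfan anaemia, changed by -3.27, and Rps24 and Rps26, also mutated in that disease, by -2.36 and -1.95. Rps6, the substrate of the S6 kinases, changed by -2.03, and Rps3, which also has a role in DNA repair, by -2.02. Rps14, which lies in the region lost in human 5q- syndrome, changed by -1.12. The X-linked Rps4x changed by -2.76.

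At the other end, 2 core genes of the small subunit did not fall in CPM. CPM are relative to all UMIs of a cluster, and cells of cluster 1 had fewer UMIs. The median per library was 3827 to 6154 in cluster 1 and 17937 to 23203 in cluster 4. Levels of single genes per cell were not compared. Rps9, a protein of the decoding fidelity region, measured 1143, 1172 and 1350 CPM in the femur and 1134, 1374 and 1324 CPM in the mandible in cluster 4. In cluster 1 it measured 1209, 1441, 1853, 1247, 1425 and 1423 CPM, so the clusters overlapped and the change was 0.19. Rps27, a zinc-finger protein of the small subunit, measured 702, 816, 817, 683, 697 and 711 CPM in cluster 4 and 721, 915, 1277, 755, 673 and 755 CPM in cluster 1, again with overlap (change 0.17). In cluster 5 both were higher than in either, at 2495 ± 123 CPM for Rps9 and 1895 ± 253 CPM for Rps27. Set beside Rpsa, Rps9 was at a like level in cluster 4 (1250 ± 111 CPM for Rps9 and 1101 ± 117 CPM for Rpsa) and far higher in cluster 1 (1433 ± 228 CPM and 60.3 ± 18.3 CPM). One UMI marks 1 captured transcript end in this chemistry, so these levels need no correction for transcript length, although capture may differ between transcripts.

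Among the large subunit, Rpl10a fell most. It measured 288, 320 and 273 CPM in the femur and 286, 380 and 412 CPM in the mandible in cluster 4, and 12.2, 17.5, 23.9, 10.9, 16.4 and 21.3 CPM in cluster 1 (change -4.21). Rpl3, which helps to form the peptidyl transferase centre, changed by -3.71. Rpl5 and Rpl11, which carry 5S ribosomal RNA into the ribosome and restrain Mdm2 when assembly fails, changed by -2.24 and -1.95. Rpl38, known for the translation of Hox messages, changed by -1.86, Rpl39 by -2.01, Rpl10 by -1.54, Rpl13a by -1.49 and Rpl41, the smallest of the proteins, by -1.17. Rpl37 was the large subunit gene that changed least (-0.14, with overlap), and like Rps18 above it was chosen for naming after the values were seen.

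The fall was made in steps. From cluster 4 to cluster 0 the median change of the 83 genes was -1.37 (0.00 over all 7186 features), and 82 were lower in 6 of 6 libraries, as were 41.2% of all features. From cluster 0 to cluster 3 the median was -0.79 (-0.14 over all features), and 76 were lower in 6 of 6 libraries (45.5% of all features). From cluster 3 to cluster 1 the median was 0.25, about that of all features (0.24), and 57 were higher in 6 of 6 libraries (48.9% of all features). Towards the other lineages the genes were higher in CPM than in the precursors. Per cell, the UMIs of these genes were 1297 ± 136 in cluster 4, 1328 ± 181 in cluster 5 and 973 ± 203 in cluster 6. The median change was 0.94 to cluster 5 (0.53 over all features), with 82 genes and 68.9% of all features higher in 6 of 6 libraries, and 1.36 to cluster 6 (0.54 over all features), with 81 genes and 52.4% of all features higher. Rpl22l1 rose least of the genes from cluster 4 to cluster 5 (0.10), and Rps27l least to cluster 6 (0.24).

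The genes with a tract near the start had a median change from cluster 4 to cluster 1 of -2.06 (39 genes, -4.21 to 0.19), and those of the RefSeq table without one had -1.69 (24 genes, -4.22 to 3.34). The ranges overlapped almost wholly. Rps9 and Rps27, which did not fall in CPM, were shown above because they had a tract and lay at that end.

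Several of the relatives did not follow the genes they resemble. Rpl3l, a paralogue of Rpl3 known from heart and skeletal muscle, measured 1.41, 1.81 and 3.81 CPM in the femur and 3.22, 3.03 and 3.14 CPM in the mandible in cluster 4, and 27.9, 36.9, 53.1, 36.6, 33.5 and 30.9 CPM in cluster 1. It was the gene that rose without overlap, by 3.34, while Rpl3 fell from 326, 327, 279, 285, 351 and 391 CPM to 17.6, 26.4, 26.8, 21.9, 23.7 and 27.8 CPM. The level of Rpl3l in cluster 4 was low, so the size of its rise depends on the pseudocount and was smaller with 10 CPM. The share of Rpl3l in the UMIs of the pair was 0.850% ± 0.344 in cluster 4, 12.9% ± 2.47 in cluster 0, 46.6% ± 5.32 in cluster 3, 56.6% ± 5.22 in cluster 2 and 60.0% ± 4.66 in cluster 1. In clusters 5 and 6 it was 1.84% ± 0.815 and 0.698% ± 0.322. Rpl3l lies at chr17:24727820-24736143 on the plus strand (GENCODE vM21 on mm10), and the gene Msrb1, a methionine sulfoxide reductase, starts 499 bases beyond its end on the same strand. Msrb1 measured 429 ± 61.1 CPM in cluster 4, 646 ± 97.5 in cluster 0, 1201 ± 151 in cluster 3, 1683 ± 249 in cluster 2 and 2033 ± 356 in cluster 1. Msrb1 thus rose through the same clusters as Rpl3l and at a far higher level, and its part in the UMIs counted for Rpl3l was not tested.

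Rpl22l1, the paralogue of Rpl22, held 38.5% ± 1.44 of the UMIs of that pair in cluster 4, 40.8% ± 1.67 in cluster 0 and 23.1% ± 4.44 in cluster 1. It fell by 3.41 on the log2 scale from cluster 4 to cluster 1, and Rpl22 fell by 2.37. Its share was also lower in cluster 5, at 21.8% ± 1.94, so the precursors and immature cells stood above both. Rpl36al, nearly identical in protein to the X-linked Rpl36a, held 48.8% ± 1.85 of their UMIs in cluster 4, 63.5% ± 1.53 in cluster 0 and 35.5% ± 5.13 in cluster 1. Rps27l, a target of p53, fell by 2.32 where Rps27 did not fall, and its share of the pair went from 15.7% ± 1.85 in cluster 4 to 3.12% ± 0.450 in cluster 1. The retrogene Rps27rt changed by 0.53 with overlap, and held 2.02% ± 0.307 and 2.67% ± 0.660 of its UMIs with Rps27 in these clusters. The values of this pair are uncertain, since 89.3% of the 31-base words in the last 300 bases of Rps27rt also stand in those of Rps27, and 52.6% of those of Rps27 in Rps27rt, and counting could split or lose such reads. Rpl7l1, a factor of ribosome assembly related to Rpl7, changed by -0.94 where Rpl7 changed by -1.73.

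The rest of the relatives were scarce. Rpl39l, a testis paralogue of Rpl39, had 269 UMIs in all libraries together. Rpl10l, an autosomal retrogene of Rpl10 used in the testis, had 0 of 724294110 UMIs, which allows a level of up to 0.00414 CPM by counting error alone. Rps19bp1, a nucleolar partner of Rps19 and no part of the ribosome, had 6800. These are the genes of the 86 that did not reach a mean of 10 CPM. The 5 processed pseudogenes left out by the rule held 19831 UMIs, or 0.0653% of those of the 86 genes.

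**Figure D4:**
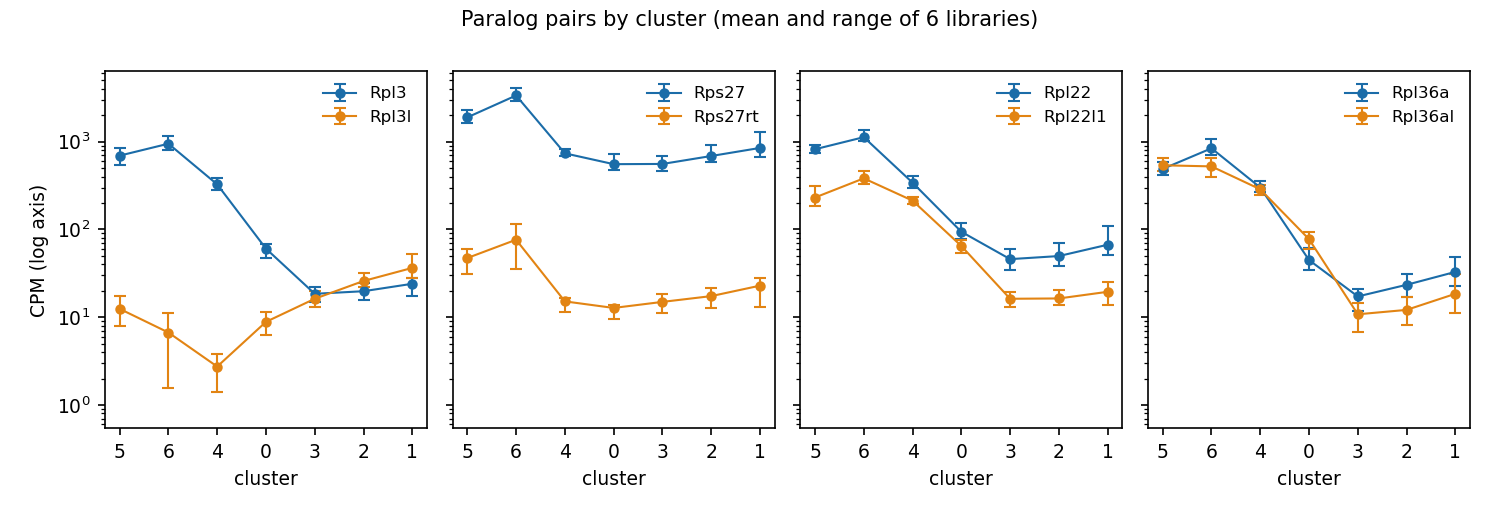
Level of 4 relatives (orange) and of the core gene each resembles (blue) in CPM (y axis, log scale) by cluster (x axis), with points at the mean of the 6 libraries and bars for their range. Rpl3l and Rpl3 cross between clusters 4 and 1, where the share of Rpl3l goes from 0.850 to 60.0%, whereas Rpl22l1 and Rpl36al fall beside their partners.

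Across the 54 sums the genes could be ordered by how closely the log2 CPM of each followed the summed level of the others, as Pearson's r. The points share libraries and clusters, and the values are a description. The closest were Rpl23, Rpl19, Rpl26, Rpl27 and Rps10, with r between 0.995 and 0.996. The least alike were Rpl3l at -0.37, Rps27rt at 0.62, Rpl7l1 at 0.74, Rps9 at 0.77 and Rps27 at 0.86. Of these, Rpl3l, Rps27rt, Rps9 and Rps27 were also the genes of the 83 with the highest change from cluster 4 to cluster 1.

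Genes that work with the ribosome were set beside the 37.0% of all features that were lower in cluster 1 and the 35.0% that were higher. All 37 translation factors of the list had a mean of at least 10 CPM, and 30 were lower than in cluster 4 without overlap and 4 higher (median -1.54). Of 45 genes of ribosome biogenesis, which act in the nucleolus, 18 reached that level, and 14 were lower and 3 higher (median -2.15). Of 78 mitochondrial ribosomal protein genes, 57 reached it, and 47 were lower and 2 higher (median -1.74). A gene that is high in cluster 4 reaches the mean of 10 CPM more easily, so the counts cover the genes that reached it and not the whole lists.

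The sites were compared within each cluster over the 3 femur and 3 mandible libraries with the edgeR quasi-likelihood test, adjusted by the false discovery rate over all features tested. The p-values set the difference between sites against the spread between these samples. The share of UMIs from the ribosomal protein genes overlapped between the sites in every cluster. The mandible was higher by 0.408 percentage points in cluster 4 (femur 5.54% ± 0.251, mandible 5.95% ± 0.654, SD, n = 3), by 0.709 in cluster 5 (10.7% ± 1.03 and 11.4% ± 0.868) and by 0.373 in cluster 6 (14.4% ± 1.07 and 14.7% ± 1.76). It was lower by 0.163 in cluster 0 (2.40% ± 0.410 and 2.24% ± 0.239), by 0.165 in cluster 1 (1.94% ± 0.547 and 1.77% ± 0.149), by 0.200 in cluster 7 (1.95% ± 0.350 and 1.75% ± 0.330) and by 0.548 in cluster 8 (2.72% ± 1.18 and 2.17% ± 0.300). Cluster 8 rested on few cells, with 160, 15 and 11 in the femur libraries and 13, 60 and 15 in the mandible libraries. In clusters 2 and 3 the differences were -0.0261 and 0.0362. None of these differences exceeded the range of the libraries. Leaving out 1 library turned the sign in clusters 0 to 3 and 6. Without femur replicate 3 the difference was 0.0696 in cluster 0, 0.132 in cluster 1 and 0.170 in cluster 2, and without femur replicate 1 it was -0.106 in cluster 3. Without mandible replicate 2 it was -0.626 in cluster 6. The sign held in clusters 4 (0.203 to 0.785), 5 (0.208 to 1.30), 7 (-0.381 to -0.0261) and 8 (-1.22 to -0.112). Cells called G1, taken alone, gave differences of the opposite sign in cluster 5 (-0.0165) and in cluster 6 (-0.799).

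No ribosomal protein gene passed a false discovery rate of 0.05 in any of the 9 clusters by edgeR in the main fit, with 80 to 85 of the 86 genes tested. This changed with a block on the number in the library name, over the 4 libraries that share it. These libraries leave out femur replicate 1, the female sample, and mandible replicate 3. That block called 19 genes in cluster 0, all lower in the mandible, and others in clusters given at the end. In cluster 0 it called 4.60% of all features in either direction, with 251 of 12461 lower. The median log2 fold change of the genes there was -0.22, and also -0.22 without femur replicate 1 and with no block. In the main fit, the share of all tested features that passed was 0.0163% in cluster 0, 0.0842% in cluster 1, 0.0416% in cluster 2, 0.0108% in cluster 3, 0.0245% in cluster 4, 0.0842% in cluster 7 and 0% in the clusters numbered 5, 6 and 8, so the count of 0 among these genes is near the background. At an unadjusted p under 0.05, edgeR gave 2 of the genes in cluster 0 (where 6.81% of all features passed), 1 in cluster 2 (Rpl22l1, 12.2%), 1 in cluster 6 (Rpl23a, 4.04%) and 5 in cluster 4 (Rps2, Rpl10a, Rpl18, Rpl36al and Rpl23a, 13.0%). It gave 0 in the others, where the share of all features was 13.6% in cluster 1, 4.38% in cluster 3, 7.11% in cluster 5, 5.32% in cluster 7 and 1.10% in cluster 8. Rpl18 was named after its values were seen. Without mandible replicate 1, 20 genes were higher in cluster 4 at this threshold (1028 of 12603 features). Leaving out femur replicate 3 gave 9 (787 of 12606), and leaving out femur replicate 2 gave 5 (830 of 12590). Leaving out femur replicate 1, mandible replicate 2 or mandible replicate 3 gave 1 each (483 of 12555, 342 of 12469 and 533 of 12635). A block on the number in the sample title gave 16 higher (762 of 12265 features). Cells labelled neutrophils alone gave 0 higher (519 of 11985 features) and 5 lower (741 of 11985). Cluster 7 gave 7 lower without femur replicate 1 (303 of 6295 features), and cluster 8 gave 8 lower without femur replicate 2 (77 of 3118). DESeq2 gave 16 genes higher and 2 lower at an unadjusted p under 0.05 in cluster 4, where 10.8% of all features passed. At an adjusted p under 0.05 DESeq2 called 1 gene, Rps2 in the precursor cluster 4, where it called 1.23% of all features. The median log2 fold change of the genes, mandible over femur, was -0.10 in cluster 0, 0.01 in cluster 1, 0.03 in cluster 2, 0.02 in cluster 3, 0.14 in cluster 4, 0.05 in cluster 5, 0.00 in cluster 6, -0.10 in cluster 7 and -0.26 in cluster 8. Without femur replicate 3 the medians in clusters 0 to 3 were 0.14, 0.28, 0.31 and 0.32, and 2, 23, 29 and 35 genes were higher in the mandible at an unadjusted p under 0.05 by edgeR, where 3.88, 8.15, 8.17 and 5.30% of all features were. Without femur replicate 1, the female sample, the medians in these clusters were -0.22, -0.17, -0.12 and -0.14. Leaving out 1 library at a time, the median ranged from 0.06 (without femur replicate 1) to 0.21 (without mandible replicate 1) in cluster 4, and from -0.03 (without femur replicate 1) to 0.12 (without femur replicate 2) in cluster 5. It ranged from -0.11 (without mandible replicate 2) to 0.09 (without femur replicate 3) in cluster 6, from -0.31 to 0.10 without the same libraries in cluster 7, and from -0.53 (without femur replicate 2) to -0.07 (without femur replicate 3) in cluster 8. The sign of the median thus held in clusters 4 and 8 alone when each library was left out, and cluster 8 held only 11 to 160 cells in a library.

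**Figure D5:**
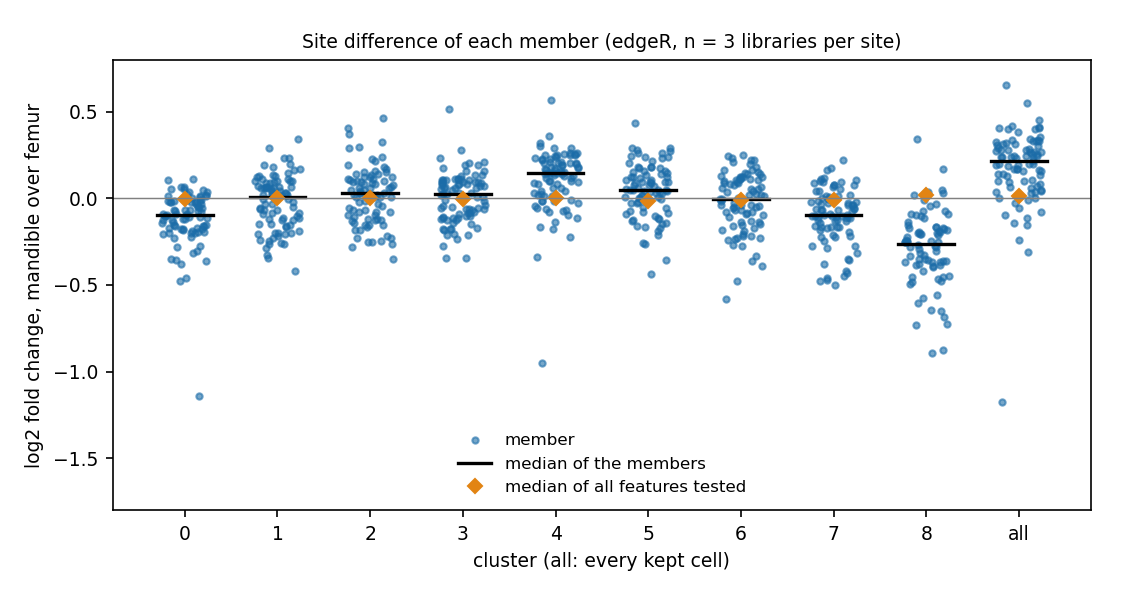
Log2 fold change of mandible over femur (y axis) of each tested ribosomal protein gene in the 9 clusters and over all cells (x axis), with 1 point per gene, a black line at their median and an orange diamond at the median of all features tested. The medians lie between -0.10 and 0.03 in clusters 0 to 3, at 0.14 in cluster 4, at -0.26 in cluster 8 and at 0.22 over all cells, and no point passed a false discovery rate of 0.05.

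The gene with the largest rise in log2 fold change from femur to mandible in cluster 4 was Rps2, a protein at the entry of the messenger RNA channel, whose gene lies at chr17:24718116-24721929. It measured 404, 486 and 396 CPM in the femur and 452, 706 and 714 CPM in the mandible. Mandible replicate 1 lay within the range of the femur, and the other mandible libraries lay above it. The log2 fold change was 0.57 (SE 0.170, edgeR adjusted p = 0.280, DESeq2 adjusted p = 0.0199). Without mandible replicate 1 the edgeR adjusted p was 0.0494 (0.762% of all features called), and with no filter on low counts it was 0.0101 (2.02% called). Rps2 overlaps Snhg9 on the other strand, which had 8975 UMIs beside 201623 for Rps2. Next came Rpl3l, with the values given above, at 0.36 on the same scale (edgeR adjusted p = 0.707), and Rpl10a at 0.32 (edgeR adjusted p = 0.348). Rpl36al was higher without overlap (250, 279 and 264 CPM against 281, 323 and 323 CPM; log2 fold change 0.25, edgeR adjusted p = 0.354).

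In the opposite direction, the scarce Rpl39l had the largest log2 fold change (-0.95, SE 0.771, edgeR adjusted p = 0.623), at 1.61, 0.195 and 0.480 CPM in the femur and 0.549, 0.490 and 0.0981 CPM in the mandible. The sites overlapped, and femur replicate 1 alone was above 1 CPM. Rpl23a, which lies beside the exit of the peptide tunnel, measured 497, 457 and 555 CPM in the femur and 365, 398 and 412 CPM in the mandible in cluster 4. Each mandible library lay below each femur library, and the log2 fold change was -0.34 (edgeR adjusted p = 0.315). Of all features tested in cluster 4, 17.9% did not overlap between the sites in one direction or the other. In cluster 5 Rpl23a measured 790, 766 and 862 CPM in the femur and 633, 707 and 615 CPM in the mandible, again without overlap (log2 fold change -0.36, edgeR adjusted p = 0.714), where 11.7% of all features did not overlap. Rps26 was higher in the mandible in cluster 5 without overlap once libraries were scaled by the TMM method. In cluster 0 Rpl31 and Rpl5 were lower without overlap on that scale (12.4% of all features), with a log2 fold change of -0.36 for Rpl31 (edgeR adjusted p = 0.713). Rpl31 overlaps Tbc1d8 on the other strand, which had 172938 UMIs beside 169720 for Rpl31.

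The makeup of cluster 4 differed between libraries. Cells with a label other than neutrophils made up 5.54, 3.41 and 1.97% of the cluster in the femur and 5.71, 8.73 and 9.13% in the mandible, and ribosomal protein genes held 15.5 to 21.7% of their UMIs. Of these 363 cells, 214 were labelled pro-B and 89 stem cells. In the cells labelled neutrophils alone, the share of the genes came to 5.17% ± 0.356 in the femur and to 4.89% ± 0.286 in the mandible, and the sign of the difference turned (-0.281 percentage points, with overlap). These cells were taken apart after the data had been seen. The median log2 fold change of the genes was 0.00 in these cells. Rps2 then measured 329, 413 and 370 CPM in the femur and 350, 481 and 458 CPM in the mandible (log2 fold change 0.27, edgeR adjusted p = 0.537), and Rpl10a had a log2 fold change of 0.05. Rpl23a measured 465, 436 and 542 CPM in the femur and 339, 347 and 346 CPM in the mandible, still without overlap (log2 fold change -0.43, edgeR adjusted p = 0.284). In cells labelled monocytes in cluster 5 the share differed by 0.0265 percentage points, and in cells labelled B cells in cluster 6 by -0.308, both with overlap.

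Over all cells of a library the genes held 3.37, 4.27 and 4.09% of the UMIs in the femur and 3.54, 5.29 and 5.06% in the mandible. Mandible replicates 2 and 3 lay above the femur and mandible replicate 1 lay within its range. In such sums, fewer cells of a type and less RNA per cell cannot be told apart. Clusters 4, 5 and 6 together held 21.8, 21.5 and 19.7% of the femur cells and 19.6, 32.2 and 29.1% of the mandible cells, and 59.6 to 78.5% of the ribosomal protein UMIs of a library. With every cluster weighted alike in all libraries, the share was 3.72, 4.18 and 4.32% in the femur and 3.79, 4.46 and 4.30% in the mandible, and the difference of 0.719 percentage points became 0.111. The erythroid list ranged from 168 to 460 CPM in the femur and from 578 to 1359 CPM in the mandible, and the B cell list from 20.3 to 109 CPM and from 80.5 to 269 CPM.

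By edgeR, 0 of 85 genes passed over all cells, where 0% of all features did, and none had an unadjusted p under 0.05 (9.37% of all features). Without mandible replicate 1, 30 were higher at that unadjusted threshold (10.5% of all features). Without each other library 0 to 2 were higher (363 of 17029 to 1183 of 16506 features). DESeq2 called none (1.46% of all features) and gave 2 at an unadjusted p under 0.05 (10.1%). The median log2 fold change of the genes was 0.22, beside 0.01 for all features, and ranged from 0.080 without mandible replicate 2 and 0.089 without femur replicate 1 to 0.37 without femur replicate 3 or mandible replicate 1. Rps2 measured 195, 265 and 227 CPM in the femur and 207, 478 and 429 CPM in the mandible, with 1 mandible library among the femur libraries (log2 fold change 0.65, edgeR adjusted p = 0.539). Rpl10a had a log2 fold change of 0.55. At the other end were Rpl39l at -1.18, which rested on few UMIs, Rpl3l at -0.31 and Rpl23a at -0.24, whose sign turned without femur replicate 3.

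The effect of site on the difference between cluster 4 and cluster 1 was tested with limma over the 6 libraries. None of the genes passed, where 0% of all features did, and 1 had an unadjusted p under 0.05 (11.2% of all features). This was Rpl3l, whose rise from cluster 4 to cluster 1 was smaller in the mandible, with an effect of 0.60 on the log2 scale (SE 0.186, limma adjusted p = 0.333). The level of Rpl3l in cluster 1 overlapped between the sites, and femur replicates 1 and 2 had the lowest levels of it in cluster 4.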

How the data were processed

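CD11b+ marrow cells of 3 femur and 3 mandible samples had been profiled with 10x Genomics 3′ chemistry. The authors deposited matrices of raw UMI counts per gene and barcode, neither normalised nor pooled, which they made with Cell Ranger on mm10. The labels name version 7.0.1 and the matrix headers 7.1.0, and use of the strand in counting is not given in the sources used here. The metadata deposited by the authors give the UMI count of each kept cell, its mitochondrial share in percent, and the clusters (resolution 0.1), phases and reference labels used here, which the authors made with Seurat after integration. The sums of the matrices matched the metadata for 99.7% or more of the cells of a library. A deposited table of the authors' own cluster comparisons was not used. Doublets were not treated here.

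Counts were summed per library and cluster and, over all features, compared between sites by the quasi-likelihood test of edgeR 4.0.16 in R 4.3.3 (TMM factors, default filter on low counts, false discovery rate of 0.05, no covariate). The site effect on the difference between clusters 4 and 1 was tested with limma 3.58.1 on CPM in log2 (prior count 2). The tests were also run on simulated counts with a known change, for clusters 4 and 1 alone. Levels between clusters were compared as log2(CPM + 1) for features with a mean of at least 10 CPM. Means ± SD are over libraries, and limits from counts cover counting error only. Gene positions came from GENCODE vM21 and promoters from RefSeq (GRCm38.p6, 250 bases before to 50 after the start), in which 20 of the 86 genes had no entry.

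Named genes were a fixed list of relatives and of genes with known roles, the 3 largest and 3 smallest log2 fold changes between sites in clusters 4 and 5 and over all cells, the 5 highest and 5 lowest correlations, the 3 largest and 3 smallest falls from cluster 4 to cluster 1, and genes without UMIs. A few genes that these rules would name are not reported here. The genes and lists were chosen with earlier results of these data known. The motifs, the downstream neighbour of Rpl3l, the weighting of clusters and the splits by label were chosen after seeing the data. Alternatives were DESeq2 1.42.0, raw library totals, TMM without the ribosomal protein genes, no filter on low counts, G1 cells alone, blocks by replicate or library number, core genes alone, a pseudocount of 10 CPM, and each library left out.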

Additional observations from a re-analysis of the deposited data

How the results depend on the processing

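The number of ribosomal protein genes past the threshold between the sites stayed at 0 under most alternatives. In cluster 4 it was 1 by DESeq2 and 1 without the filter on low counts, and 0 to 1 when each library was left out. The 1 was Rps2 in each case, with an adjusted p of 0.0494 by edgeR without mandible replicate 1. For the number in the sample title, r of same-numbered libraries over all genes ranged from -0.40 to 0.61 over the clusters, with no cluster in which all 3 pairs were over 0.1, and a replicate block on it called no ribosomal protein gene. The number in the library name is shared by 2 pairs of libraries, whose deviations correlated at 0.29 to 0.50 in clusters 0 to 3. A replicate block on that number, over these 4 libraries alone, called 19 genes in cluster 0 (4.60% of all features), 10 in cluster 1 (14.1%), 6 in cluster 2 (12.4%), 2 in cluster 3 (5.28%), 2 in cluster 4 (3.67%) and 1 in cluster 7 (1.36%). All were lower in the mandible but 1 in cluster 2 and 1 in cluster 4. The shares of all features count both directions. In cluster 8 the block turned the median log2 fold change of the genes from -0.26 to 0.09. The 4 libraries leave out femur replicate 1, the female sample, and mandible replicate 3. With the block, the medians in clusters 0 to 3 were -0.22, -0.18, -0.11 and -0.13. Without femur replicate 1 and with no block they were -0.22, -0.17, -0.12 and -0.14. The labels do not say what the number in the library name marks, and the cause was not tested. The share in cluster 4 differed by -0.281 percentage points in cells labelled neutrophils alone, against 0.408 in all its cells. Rpl39l in cluster 4 reversed to 0.57 under the block on the library number, and without single libraries ranged from -1.34 to 0.0082. Rpl23a over all cells ranged from -0.35 to 0.0041, the highest without femur replicate 3, where its sign turned. The median change from cluster 4 to cluster 1 was -1.95, and -1.74 in cells labelled neutrophils. With a pseudocount of 10 CPM the change of Rpl10a was -3.64 and that of Rpl3l 1.85, so the size of a change in scarce genes rests on this choice. In G1 cells of cluster 6, 10 genes were lower at an unadjusted p under 0.05 (3.10% of all features) and the median was -0.11. No fit on G1 cells alone was made for clusters 4 and 8, which had too few. Over all cells, 30 genes were higher at an unadjusted p under 0.05 without mandible replicate 1 (10.5% of all features), and none with it. With 3 libraries a site, only differences beyond the spread between libraries could be called.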
